A study of Mus musculus with 3 samples.

Results

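Metallothioneins and genes of iron and copper handling were followed in mouse liver through 10 Affymetrix probe sets chosen by their IDs, which stand for 7 genes: Mt1, Mt2, Hamp, Tfrc, Trf, Slc40a1 and Cp. Of these 10 probe sets, 9 were in the authors' table of log2 ratios, out of 19824 probe sets other than the manufacturer's controls. The remaining one, Tfrc 1422967_a_at, had a signal only in the series' second table, which lists log2 signals for 45101 probe sets. The livers came from female BALB/c mice, and 3 groups were compared: old Chlorella (50 weeks of age, 2.0% Chlorella powder in the food), old control (50 weeks, normal food) and young control (10 weeks, normal food). Each group was 1 array, hybridized with pooled RNA of 6 mice, so no value has a replicate error, no p-value was computed, and every difference is between 2 pools. The number of arrays limits the precision. Ovalbumin-sensitized animals appear in the title of the series, whereas no sample label mentions sensitization.

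Metallothioneins are small cysteine-rich proteins that bind zinc and copper, and in liver their genes are switched on by metals, glucocorticoids and inflammation. Hepcidin, the peptide encoded by Hamp, is secreted by hepatocytes and causes the iron exporter ferroportin (Slc40a1) to be degraded, which lowers the release of iron into plasma. Transferrin (Trf) carries iron in plasma, the transferrin receptor (Tfrc) takes it into cells, and ceruloplasmin (Cp), the main copper protein of plasma, oxidizes iron as it leaves cells.

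Mt1 and Mt2 lie next to each other on mouse chromosome 8, Mt2 at chr8:94172618-94173567 and Mt1 at chr8:94178883-94180327 (RefSeq, GRCm38.p6). Their promoters are shown because both genes showed the same order of the 3 arrays. Each run holds 250 bases before and 30 bases from the RefSeq start site (Mt1 chr8:94178839-94179118, Mt2 chr8:94172368-94172647, both on the plus strand), and capitals mark matches to TGCACNC or TGCGCNC, the cores of metal response elements bound by the zinc-sensing factor MTF1, on either strand.
Mt1: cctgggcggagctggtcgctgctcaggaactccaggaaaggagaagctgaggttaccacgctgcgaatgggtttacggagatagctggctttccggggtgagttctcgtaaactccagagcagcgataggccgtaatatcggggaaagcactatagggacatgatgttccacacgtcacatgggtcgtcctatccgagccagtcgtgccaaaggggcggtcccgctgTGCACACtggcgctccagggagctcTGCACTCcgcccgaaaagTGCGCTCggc
Mt2: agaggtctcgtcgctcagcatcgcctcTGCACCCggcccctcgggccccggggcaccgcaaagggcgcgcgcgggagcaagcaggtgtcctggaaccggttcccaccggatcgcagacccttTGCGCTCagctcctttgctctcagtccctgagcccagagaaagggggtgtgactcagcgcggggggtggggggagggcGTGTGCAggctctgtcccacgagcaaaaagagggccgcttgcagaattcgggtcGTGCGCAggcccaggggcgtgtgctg
For Mt1 the start site of the promoter table, at position 94179089, lies inside the RefSeq gene span, which begins upstream of it. The Mt1 window held 3 matches and the Mt2 window 4, and in neither window did matches overlap. Over all 32851 RefSeq promoter windows of this length, 24.1% held at least 1 match, 1.73% at least 3 and 0.405% at least 4. A match describes letters in the window and does not show that a factor was bound.

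Old control minus young control is called the age difference, and old Chlorella minus old control the diet difference. Between old control and young control, Mt1, Mt2 and 1 Cp probe set were at least 1.5-fold lower and 1 Tfrc probe set was higher. Hamp, Trf and Slc40a1 were higher by under 1.5-fold. The share of all probe sets past 1.5-fold by age was not counted. The lower and upper quartiles of their age differences were -0.567 and 0.428 (log2), so decreases near 1.5-fold were common between these arrays. Counting differences of at least 2-fold (1 on the log2 scale), 1 of the 9 member probe sets was higher and 2 were lower. Among the 16667 probe sets measured on both arrays 9.55% were higher and 8.80% lower by this measure, together 18.3%. In bulk liver RNA, fewer cells of a type and less RNA per cell cannot be told apart. The members' median difference was -0.16 (log2), beside -0.11 over all probe sets. Between old Chlorella and old control none of the 9 members reached 2-fold, beside 0.841% of 16524 probe sets higher and 0.678% lower, together 1.52%. At 1.5-fold 2 members, Mt1 and Mt2, were higher and none was lower, beside 4.55% of all probe sets higher. The members' median diet difference was 0.085 (log2) and that of all probe sets 0.003. Between old Chlorella and young control 1 member was at least 2-fold higher and none lower, beside 8.32% higher and 6.87% lower over 16572 probe sets, together 15.2%. Of all the 2-fold differences, 52.0% were increases by age, against 15.5% relative to the hybridization controls and 4.76% relative to the poly-A controls. These controls are sequences of the array design meant for RNA spiked in at hybridization or before labelling. By diet the share of increases was 55.4%, against 80.8% and 90.6% with these controls and 42.2% with quantile normalized signals. Between old Chlorella and young control it was 54.7%, against 26.9% and 11.1%. Members of 1 gene share a transcript, so the 9 probe sets are not independent, and comparisons that share an array are not independent of each other.

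**Figure D1:**
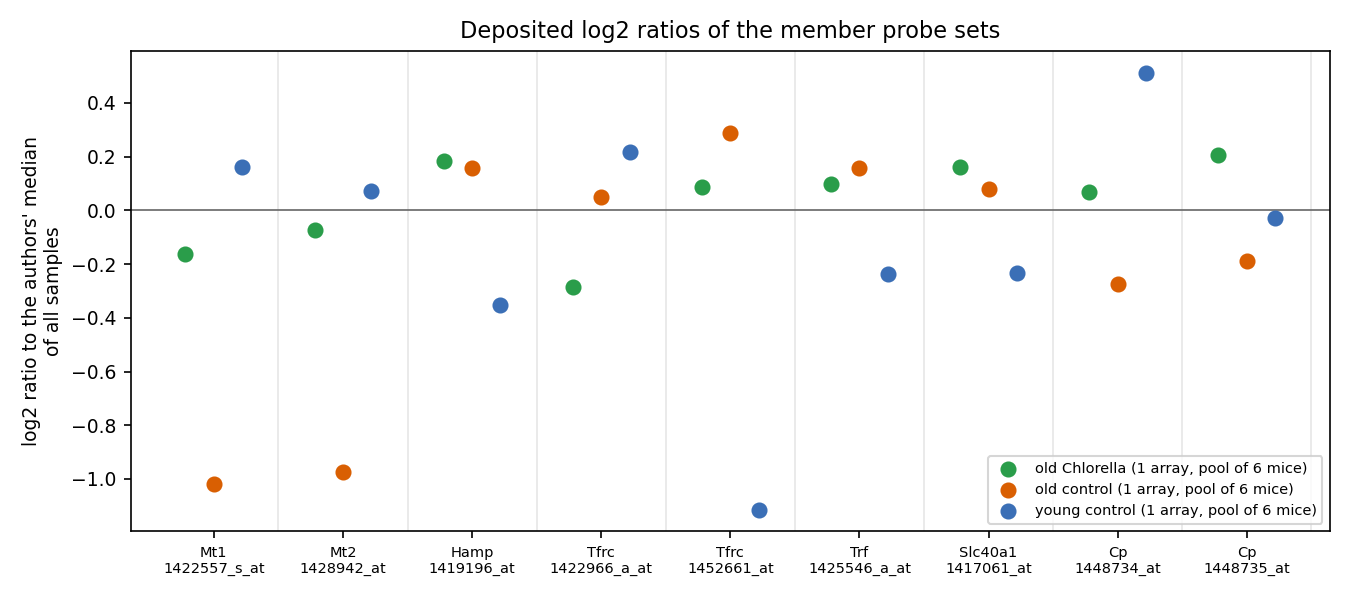
Deposited log2 ratio (vertical axis, relative to the authors' median of all samples) of each of the 9 member probe sets (horizontal axis) in old Chlorella, old control and young control, each point being 1 array of pooled RNA. Mt1 and Mt2 are lowest in old control, at -1.02 and -0.97, and Tfrc 1452661_at is lowest in young control, at -1.11.

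Mt1, a metallothionein that buffers zinc and copper, was read by a probe set with the suffix _s_at, at log2 ratios of -0.16 in old Chlorella, -1.02 in old control and 0.16 in young control. Its log2 signals were 12.64 in old Chlorella, 11.78 in old control and 12.97 in young control. Old control was thus the low array, with old Chlorella close to young control. Mt2, the metallothionein encoded beside it, was at -0.07 in old Chlorella, -0.97 in old control and 0.07 in young control (1428942_at), with log2 signals of 10.75, 9.85 and 10.90 in the same order. The order of the 3 arrays was therefore the same for both genes.

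Old control was below young control by 1.18 on the log2 scale for Mt1 (2.27-fold lower) and by 1.04 for Mt2 (2.06-fold lower). In this comparison 5.12% of all probe sets were as low as Mt1 or lower, and 7.88% as low as Mt2 or lower, so differences of this size were common between these arrays. Old Chlorella was above old control by 0.86 for Mt1 (1.81-fold) and by 0.90 for Mt2 (1.87-fold). Only 1.48% of all probe sets were as high as Mt1 or higher in the diet comparison, and 1.25% as high as Mt2 or higher. Set against young control, old Chlorella differed by -0.33 for Mt1 and by -0.14 for Mt2, the second turning to 0.03 after scaling by signal level. Age and diet values use the same old control array and are not independent. Under 6 other scalings of the arrays, the Mt1 difference stayed negative by age, between -1.93 and -1.11 on the log2 scale, and positive by diet, between 0.82 and 1.15. For Mt2 these ranges were -1.80 to -0.82, below 2-fold in 3 of the 6, and 0.88 to 1.19.

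That suffix marks a probe set that can read transcripts of more than 1 gene, and the annotation names only Mt1 for it. Another Mt1 probe set, 1451612_at, had no row among the log2 ratios and ran the other way: its log2 signals were 6.54 in old Chlorella, 6.84 in old control and 5.0 in young control. In young control this was below the median of that array (6.08). Mt3, known as the brain form, had log2 signals of 7.87, 7.26 and 3.90 in the same order, and Mt4, known from squamous epithelium, 4.99, 4.87 and 2.83. Neither had a row among the log2 ratios, and Mt4 was below the array median on every array.

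Hamp, which encodes hepcidin, was at log2 ratios of 0.19 in old Chlorella, 0.16 in old control and -0.35 in young control, with log2 signals of 15.78, 15.75 and 15.24. Both old arrays lay above young control and nearly on each other. By age the difference was 0.51 (1.43-fold), and by diet 0.03. Old Chlorella exceeded young control by 0.54 (1.45-fold). A second Hamp probe set, 1419197_x_at, gave 0.55 for the age difference and -0.02 for the diet difference. Hamp2, a close copy of Hamp next to it on chromosome 7, gave 0.52 and -0.11 on 1436643_x_at. How far these probe sets read both genes was not checked, since probe sequences were not used here.

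The age difference of Hamp was not apart from that of other bright probe sets. The 197 probe sets with 3 values and a mean log2 signal of 15 or more had a median age difference of 0.61, with the middle 50% between 0.42 and 1.004, and Hamp lay inside that range. The 18 hybridization controls were higher in old control by a median of 0.455, and 13 probe sets of hepatocyte marker genes by a median of 0.42. Among these 13, Alb was at 0.47 and the 4 Ttr probe sets between 0.43 and 0.47, whereas Ahsg was at -0.14 and the 2 Apob probe sets at -1.32 and -1.40. Under the other scalings the direction of the Hamp age difference was not stable. It was 0.58 with array medians at 0, 0.48 with quantile normalized ratios and 0.11 relative to the hybridization controls, but -0.24 relative to the poly-A controls, -0.05 with quantile normalized signals and -0.17 after scaling by signal level. The part of signal level and scaling in the Hamp value was not tested further.

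Transferrin, the iron carrier made by hepatocytes, was at log2 ratios of 0.10 in old Chlorella, 0.16 in old control and -0.24 in young control (1425546_a_at). The annotation gives this probe set to both Trf and Srprb, a subunit of the signal recognition particle receptor encoded next to Trf on chromosome 9. The age difference was 0.39 (1.31-fold) and the diet difference -0.06. As for Hamp, its log2 signals were high (15.60, 15.66 and 15.27 in old Chlorella, old control and young control), and the age difference turned to between -0.36 and -0.01 under 4 of the 6 other scalings. The diet difference turned to between 0.03 and 0.23 under 4 of the 6 others.

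The probe sets for Tfrc, the receptor that takes up iron-loaded transferrin, disagreed with each other. Tfrc 1452661_at was at log2 ratios of 0.09 in old Chlorella, 0.29 in old control and -1.11 in young control. Both old arrays were high on it, by 1.40 (2.64-fold) in old control and by 1.20 (2.30-fold) in old Chlorella relative to young control. In contrast, Tfrc 1422966_a_at was at -0.29 in old Chlorella, 0.05 in old control and 0.22 in young control, so that young control was the highest array. Its differences were -0.17 by age and -0.33 by diet. Tfrc 1422967_a_at, the member without log2 ratios, had log2 signals of 4.75 in old Chlorella, 5.21 in old control and 5.79 in young control. These were all below the array medians, which lay between 6.08 and 6.46, and gave -0.58 by age and -0.46 by diet. The manufacturer's control probe set for the 3' end of this transcript was at log2 signals of 6.29 in old Chlorella, 6.34 in old control and 6.75 in young control.

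The control probe sets for its 5' end and middle were, like 1422967_a_at, below the array medians throughout, with age differences of 0.25 and -1.62. Of all 6 Tfrc probe sets, 2 were higher by age and 4 lower. Among the 2 above the array median on every array, 1452661_at was higher and 1422966_a_at lower, so no single direction could be given for the gene. The higher value of 1452661_at stayed positive under all 6 other scalings (0.65 to 1.61), but was below 2-fold relative to the hybridization controls (0.998) or the poly-A controls (0.65). That of 1422966_a_at ranged from -0.92 to 0.02 and was positive with quantile normalized ratios. By diet all 3 member probe sets were lower, with log2 differences between -0.46 and -0.20. On 1452661_at the diet difference turned to 0.09 relative to the poly-A controls.

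**Figure D2:**
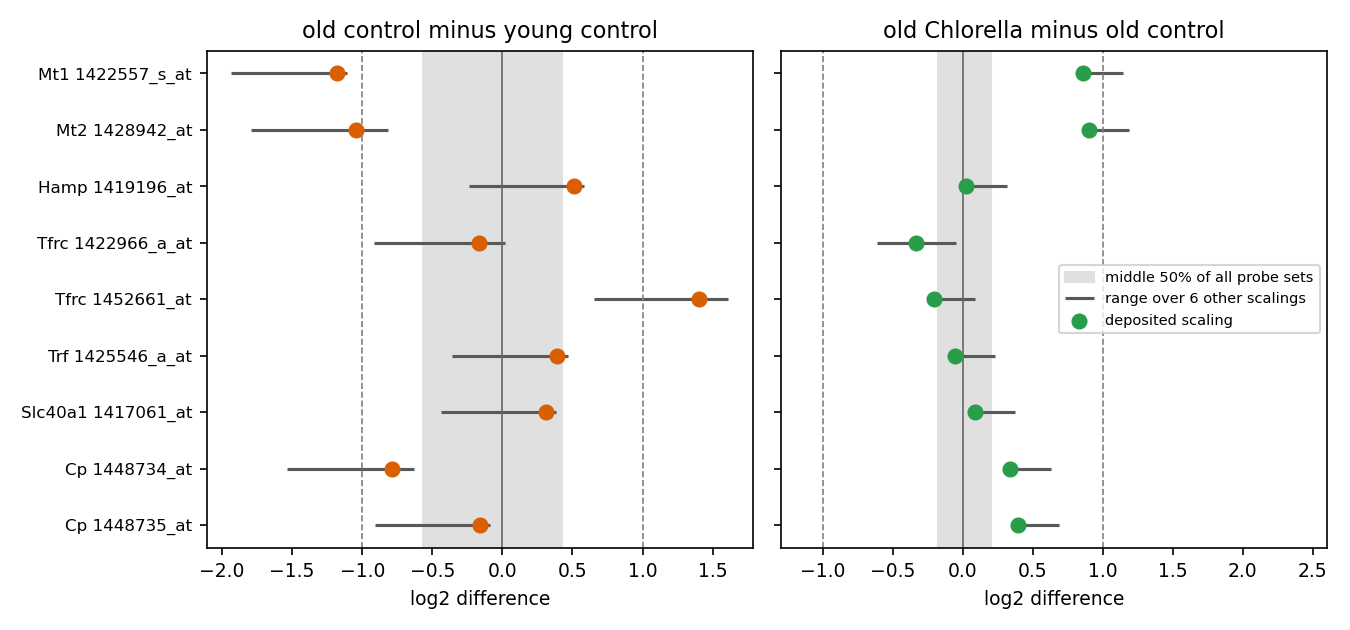
Log2 difference (horizontal axis) of each member probe set (vertical axis) by age (old control minus young control, left) and by diet (old Chlorella minus old control, right). Points give the deposited scaling, horizontal lines the range over 6 other scalings, the grey band the middle 50% of all probe sets and dashed lines 2-fold. In the right panel Mt1 and Mt2, at 0.86 and 0.90, lie apart from the other members, of which the highest is Cp 1448735_at at 0.40.

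Ferroportin, the iron exporter encoded by Slc40a1, was at log2 ratios of 0.16 in old Chlorella, 0.08 in old control and -0.23 in young control. The old arrays were close to each other and above young control, by 0.31 (1.24-fold) in old control and 0.40 (1.32-fold) in old Chlorella. A second probe set, 1448566_at, showed no such step, with log2 signals of 12.12 in old Chlorella, 12.13 in old control and 12.20 in young control. The age difference of the member probe set became -0.09 relative to the hybridization controls and -0.44 relative to the poly-A controls. The summed signal of 10 probe sets for Kupffer cell and macrophage genes, cells that export much iron through ferroportin, was 34394 in old Chlorella, 34398 in old control and 19227 in young control. Of the 8 of them with both values, 1 was at least 2-fold higher by age, that of Vsig4 (1.82, log2), and the 3 of Csf1r were lower, between -0.20 and -0.075. None of the 10 was at a signal of 0 on every array. Their part in the Slc40a1 value was not tested.

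Ceruloplasmin was read by 2 members. Cp 1448734_at was at log2 ratios of 0.07 in old Chlorella, -0.27 in old control and 0.51 in young control, with young control highest and old control lowest. Cp 1448735_at was at 0.21, -0.19 and -0.03 in the same order, so old control was again lowest but old Chlorella highest. The age difference was -0.79 (1.72-fold lower) on 1448734_at and -0.16 on 1448735_at, and the diet difference 0.34 (1.27-fold) and 0.40 (1.32-fold). Both age differences stayed negative and both diet differences positive under the 6 other scalings, with 1448734_at ranging from -1.54 to -0.63 by age and from 0.33 to 0.63 by diet.

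The array carries 6 further probe sets annotated to Cp. The 4 with log2 signals above 11 on every array had log2 differences between -1.03 and -0.71 by age, and between 0.13 and 0.28 by diet. Cp 1417497_at, with no log2 ratio for old control, differed by -1.77 by age and 2.18 by diet at log2 signals of 6.73 in old Chlorella, 4.55 in old control and 6.32 in young control. Cp 1441326_at ran against the others by age: its log2 signals were 8.93 in old Chlorella, 9.0 in old control and 7.23 in young control. The old control signal of 1417497_at was below the median of that array (6.33). Among the 7 Cp probe sets above the array median on every array, 6 were lower by age and 1 was higher.

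**Figure D3:**
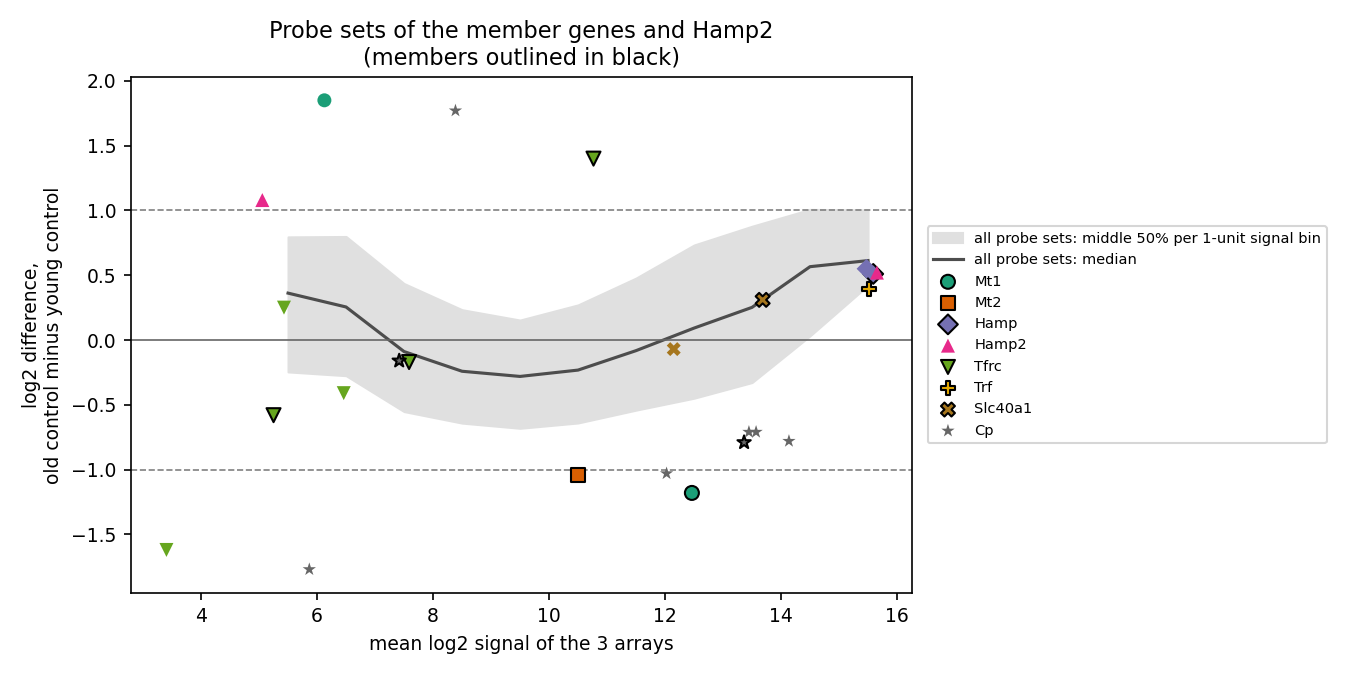
Log2 difference between old control and young control (vertical axis) of every probe set annotated to the member genes or Hamp2 against its mean log2 signal over the 3 arrays (horizontal axis), with members outlined in black. The line and the band give the median and the middle 50% of all probe sets in bins of 1 signal unit. The Hamp, Hamp2 and Trf probe sets with signals above 15 lie near the upper end of that line, the member probe sets of Mt1 and Mt2 lie below the band, the dim second Mt1 probe set lies above it at 1.85, and the Tfrc and Cp probe sets spread to both sides of 0.

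Other genes of metal handling were described from 9 lists, with 83 genes and 139 probe sets that could be compared by age when members are included. The Trf probe set, with its 2 symbols, was left out of them. Without the members, 7 of 131 probe sets passed 2-fold upwards by age and 14 downwards, together 16%, near the 18.3% of all probe sets. The median was -0.25 (log2), against -0.11 over all probe sets. Age differences varied with signal level, however. Probe sets with mean log2 signals of 8 to 9, 9 to 10 and 10 to 11 had medians of -0.241, -0.281 and -0.232. All other signal levels had higher medians. Neither this list median nor those of the single lists below were compared with probe sets of equal signal. The part of signal level in them was not tested. Relative to the hybridization controls the split over the lists with members was 2 higher and 44 lower, and relative to the poly-A controls 1 and 69, against 8 and 16 as deposited. With array medians at 0 it was 11 higher and 13 lower. Of all probe sets, 28.2% passed 2-fold relative to the hybridization controls, 44.7% relative to the poly-A controls and 18.1% with array medians at 0.

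Zinc transport and sensing had 1 higher and 6 lower of 19 probe sets. The zinc importers Slc39a4 (-1.75, log2; 3.35-fold) and Slc39a14 (-1.43; 2.70-fold), of which the second also takes up iron not bound to transferrin, and the zinc transporter Slc39a7 (-1.42; 2.68-fold) were lower in old control. A second Slc39a14 probe set gave -1.20 and another -0.56. Mtf1, the factor that reads zinc, was higher on 1429170_a_at (1.35; 2.56-fold) and at -0.17 on 1418333_at. The median of this list was -0.51.

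Haem synthesis, which uses iron, had 1 higher and 2 lower of 15 probe sets by age. Alas1, the rate-limiting enzyme in liver, was at -1.55 (2.93-fold lower) and -0.92 on its 2 probe sets, and Alad, the next enzyme, at -1.34 (2.53-fold lower) and 0.02. In the copper list 3 of 23 probe sets were higher and 4 lower, Mt1 and Mt2 among the lower ones. Commd1, which takes part in copper export, was higher in old control on both probe sets, by 1.355 (2.56-fold) and 1.18 (2.27-fold).

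Iron uptake and transport had 2 higher and 3 lower of 21 probe sets, with a median of -0.49. Lrp1, a receptor that clears haem bound to hemopexin, gave 1.74 on 1442849_at and -0.695 on 1448655_at. The first was the dimmer, with log2 signals of 7.70 in old control and 5.96 in young control, against 10.51 and 11.21. Among the genes that control hepcidin, without Hamp and Hamp2 themselves, 0 of 34 probe sets passed 2-fold upwards by age and 2 downwards, both of Stat3, which carries the IL-6 signal (-1.353 and -1.115, log2). None of the 9 probe sets for iron storage and release reached 2-fold. Fth1, the ferritin heavy chain, gave 0.42 and 0.46. None of the 8 probe sets for iron sensing did, and Aco1, whose protein binds iron-responsive elements when iron is scarce, gave -0.86 and -0.79. In the list of iron export and ferroxidases the 2-fold differences were those of Cp 1441326_at (1.77; 3.42-fold) and 1417496_at (-1.03; 2.04-fold), out of 10 probe sets.

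By diet, 2 of the 130 metal-handling probe sets outside the members passed 2-fold upwards and 0 downwards (1.54%, beside 1.52% of all probe sets). With quantile normalized ratios the split over the lists with members was 6 higher and 4 lower, and with quantile normalized signals 2 and 1, against 2 and 0 as deposited. Of all probe sets, 5.19% passed 2-fold with quantile normalized ratios and 1.91% with quantile normalized signals. Lcn2, which binds bacterial iron carriers and is made by hepatocytes and neutrophils, was at log2 signals of 10.47 in old Chlorella, 9.37 in old control and 10.57 in young control. Its diet difference of 1.10 (2.14-fold) and age difference of -1.20 (2.30-fold lower) give the same order of the arrays as Mt1 and Mt2. The 4 neutrophil probe sets summed to a signal of 10492 in old Chlorella, 6543 in old control and 899 in young control, and none was at 0 on every array. All 3 with log2 ratios passed 2-fold by age and 0 by diet, with a median diet difference of 0.66. Their part in the Lcn2 value was not tested. Sod1, the copper and zinc superoxide dismutase, was 1.025 higher (2.03-fold) on 1435304_at, and 0.10 to 0.13 on 3 others. The log2 signals of 1435304_at were 8.23 in old Chlorella and 7.20 in old control, against 14.12 and 14.02 on 1451124_at.

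Between old Chlorella and young control, 9 of 132 metal-handling probe sets outside the members were higher and 8 lower by 2-fold, together 12.9%, beside 15.2% of all. With the members, the split was 10 and 8 as deposited, 3 and 7 with quantile normalized ratios, 3 and 21 with the hybridization controls, 1 and 36 with the poly-A controls and 10 and 13 with quantile normalized signals. Of all probe sets, 9.81%, 19.2%, 27.2% and 13.8% passed 2-fold in these other settings, in the same order.

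**Figure D4:**
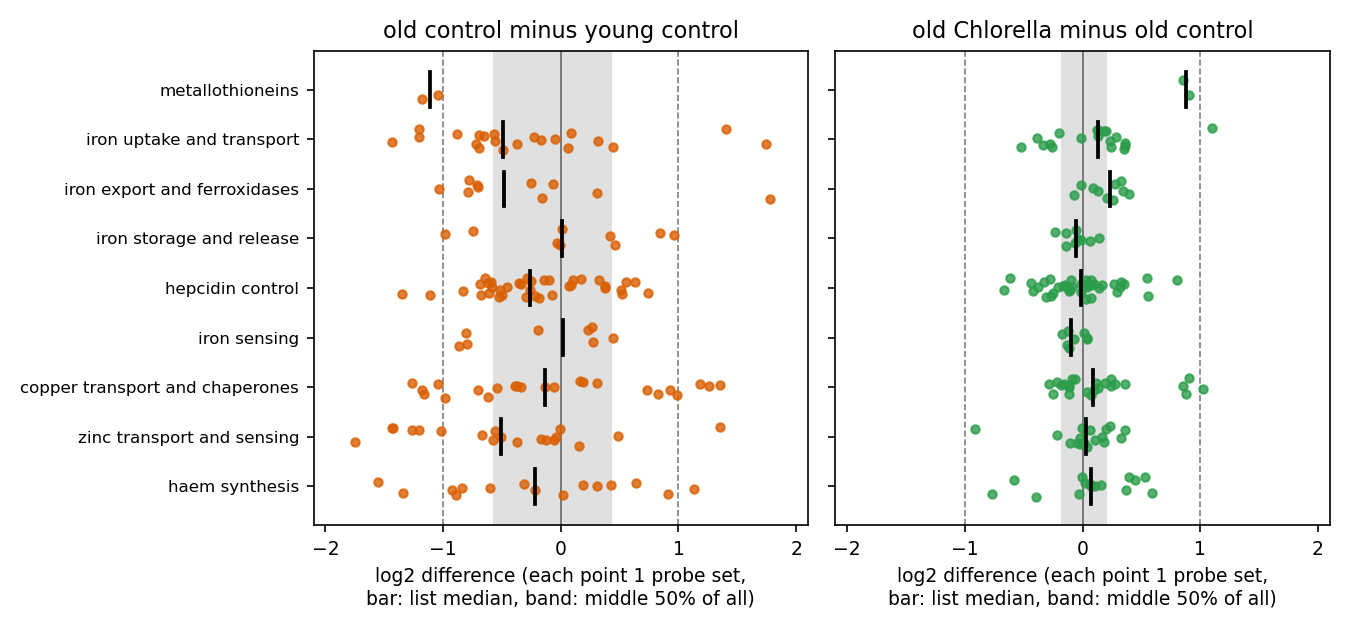
Log2 differences (horizontal axis) of single probe sets (points) in 9 lists of metal-handling genes (vertical axis), old control minus young control on the left and old Chlorella minus old control on the right. Black bars are list medians, the band is the middle 50% of all probe sets and dashed lines mark 2-fold. The 2 metallothionein probe sets lie left of the band by age, with a median of -1.11, and right of it by diet, with a median of 0.88.

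Among acute-phase genes, to which Hamp, Cp and Lcn2 also belong, 4 of 27 probe sets passed 2-fold upwards and 4 downwards by age. The higher ones were of Saa1 (1.81 and 1.57, log2), Saa2 and Cp, and the lower ones of Cp, Lcn2, Saa4 and Serpina3n. Over all probe sets 9.55% were higher and 8.80% lower by age. Of 13 probe sets for glucocorticoid-responsive genes, a class that includes the metallothioneins, 1 was higher and 3 lower by age, and 0 passed 2-fold in either direction by diet, with a median diet difference of 0.08.

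The genes most like 3 of the members were taken by the distance between their age and diet differences, over the probe sets with 3 values and 1 gene symbol. With 3 arrays, such likeness rests on 2 numbers per probe set. Of 14313 probe sets, those nearest to Mt1 were Kdr, an endothelial growth factor receptor (0.002 log2 units away), Mmrn2 (0.015) and Btbd10 (0.021). Of 14312 each, Ermard (0.015), Zfp955b (0.016) and Pigx (0.018) were nearest to Hamp, and Stx12 (0.004), Aqp1 (0.009) and Bcl10 (0.01) to Slc40a1.

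Liver identity was checked on marker genes: the 13 hepatocyte probe sets had a summed signal of 619644 in old Chlorella, 643821 in old control and 519842 in young control. This sum is carried by the brightest of them, and both Apob probe sets were lower in old control, by 2.49-fold and 2.63-fold. The sum of 15 B lymphocyte probe sets differed more, at 9724, 11277 and 3112 in the same order. Erythroid probe sets summed to 2292, 3439 and 1793. The 3 erythroid genes with log2 ratios did not share 1 order. Alas2 (log2 signals of 9.09, 9.86 and 9.22) and Slc4a1 (5.78, 7.07 and 6.39) were highest in old control. The globin gene Hbb-b2 (8.30, 8.35 and 8.57) was highest in young control. No marker probe set was at a signal of 0 on all 3 arrays. Whether blood or immune cells bear on the member values was not tested.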

How the data were processed

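Liver RNA of 3 pools of 6 mice was measured on 1 Affymetrix array each. Per the file header, the authors deposited log2 ratios of normalized expression to the median of all samples, with 3 decimals. This median is not that of the 3 arrays alone, since the middle array was not at 0. Mt1, for example, was at -0.163 in old Chlorella, -1.019 in old control and 0.163 in young control. The series matrix the authors deposited holds log2 signals, and per the submitters' processing notes MAS5 was used. Differences between arrays in the 2 tables agreed within 0.001, so the ratio denominator cancels. Without the 2% highest and lowest values, each array's linear signals averaged 499.7 to 499.8, so the deposited scaling sets this mean equal. MAS5 detection calls were not used here, and no source used here gives the rule behind empty ratios.

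Differences were taken between arrays over probe sets with both values (Python 3.11.15, pandas 2.3.3). The 58 control probe sets were left out of counts, and 2-fold was the threshold. The planned filter used the median signal of each array. The calling step was run on simulated data with differences well above the threshold and noise set to the spread between the old arrays. That run does not show how differences near the threshold are called. Lowess curves used a fraction of 0.3 (statsmodels 0.14.6). Gene names come from the platform annotation (34958 probe sets with 1 symbol, 932 with several, 9211 with none), updated through RefSeq for 34754. Alternatives were 6 other scalings (array medians set to 0, quantile normalized ratios, the median of the hybridization or of the poly-A controls set to 0, quantile normalized signals, and lowess by signal level), other fold thresholds, the filter and 1 value per gene. The text names every member, list genes past 2-fold by age or by diet (at most 10 each, largest first) and the 3 nearest patterns; further probe sets and genes were chosen after their values were seen. Members and lists were chosen with earlier results of these data known.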

Additional observations from a re-analysis of the deposited data

How the results depend on the processing

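With no replicates, a single difference was counted as moved when another setting changed it by more than 0.337 (log2), the SD of the difference between the old arrays over all probe sets. Of 162 such member values under the 6 other scalings, 126 moved less, 36 moved more and no difference past 2-fold changed sign. Array medians at 0, the hybridization controls and the poly-A controls each shift all members of a comparison by the same amount. In those settings all members of a comparison move or stay together, so the 162 values are not independent outcomes. In the age comparison the count of members past 2-fold was 3, 2 with array medians at 0 or 1 value per gene, and 0 at 3-fold. The probe sets counted were not always the same. Of the 6 other scalings, Mt1 passed 2-fold in 6, Tfrc 1452661_at in 4 and Mt2 in 3, and Cp 1448734_at, below 2-fold as deposited, in 4. The members' median of -0.161 became -0.567 relative to the hybridization controls and -0.912 relative to the poly-A controls, where the median of all probe sets moved to -0.52 and -0.865. The 24 metal-handling probe sets past 2-fold became 15 with quantile normalized ratios, 46 and 70 with those 2 kinds of controls and 63 at 1.5-fold. Here and below, the share of all probe sets past 1.5-fold was counted only for increases by diet (4.55%). None of the metal-handling counts at 1.5-fold therefore has a full share of all probe sets beside it. Of all probe sets, 18.3% passed 2-fold by age as deposited. This share was 11.2% with quantile normalized ratios, and 28.2% and 44.7% with those controls. By diet the members past 2-fold went from 0 to 2 with quantile normalized ratios, the hybridization controls, the poly-A controls or 1.5-fold, each time Mt1 and Mt2, and the median of all probe sets moved to 0.17 and 0.293 with the controls. The 2 metal-handling probe sets became 10, 5, 6 and 12 in these settings and 1 after scaling by signal level. Of all probe sets, 1.52% passed 2-fold by diet as deposited and after scaling by signal level. This share was 5.19% with quantile normalized ratios, 2.02% with the hybridization controls and 3.07% with the poly-A controls. Between old Chlorella and young control the 1 member past 2-fold became 0 with quantile normalized ratios, either kind of controls, 3-fold or 1 value per gene. The members' median of 0.235 became -0.226 with the poly-A controls, and the 18 metal-handling probe sets became 10 with quantile normalized ratios, 37 with the poly-A controls and 49 at 1.5-fold. Of all probe sets, 15.2% passed 2-fold in this comparison, against 9.81% with quantile normalized ratios and 27.2% with the poly-A controls. Of all 2-fold age differences 52.0% were increases, against 15.5% with the hybridization and 4.76% with the poly-A controls, and by diet 55.4%, against 80.8% and 90.6%. Scaling by signal level and quantile normalized signals were added after the data were seen. The cause of these shifts was not tested. No paired analysis was possible because each group is 1 array.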
